A study of Mus musculus with 12 samples.

Results

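The wild-type (WT) control kidneys of a C57BL/6 cohort and of a mixed-strain cohort were compared at postnatal day 3 (P3) in mice. All kidneys labelled WT were taken, chosen by genotype and strain label alone, which gave 6 of the 12 kidneys of the series. The series was made to ask how the Lin28/let-7 axis times the end of nephron formation, and it sequenced whole-kidney RNA of 2 mutant models, each beside WT littermates. In the C57BL/6 cohort, kidneys 25, 28 and 29 were WT, and their littermates overexpressed human LIN28B from a doxycycline-inducible transgene in the Wt1-Cre lineage (label LIN28OE). In the mixed cohort, whose animals descend from CD1, an outbred stock, and C57BL/6, an inbred strain, kidneys 31, 32 and 33 were WT and their littermates carried a let-7 deletion (label let7KO). Each number is the library number of 1 kidney. Each group came from 2 litters, with kidneys 25, 28, 31 and 32 from the litter numbered 1 in their cohort and kidneys 29 and 33 from the litter numbered 2. The LIN28B model was induced by doxycycline in the drinking water, and whether the WT littermates received it or carried single transgenes is not given in the sources used here. Strain, cohort, litter and handling therefore cannot be told apart, and each difference below is one between these control groups.

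Nephrons form where the ureteric bud branches into cap mesenchyme, a pool of Six2-expressing progenitors that signals back to the bud through Gdnf and Ret. In the mouse this pool is used up within days of birth, so a P3 kidney holds the last progenitors beside proximal tubules that are still gaining transporters. Laboratory strains differ in gene sequence, in copies of gene families and in processed pseudogenes, which are copies of spliced messages inserted elsewhere in the genome.

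Total counts of the 6 WT kidneys ran from 41225426 to 59979281, so that 3 counts corresponded to 0.050 to 0.0728 CPM (counts scaled to a library of the same total). Kidney 32 stood apart. It lay at 124.6 on the first principal component, which held 40.1% of the variance, against -49.6 to 12.5 for the others, and its log2 levels fell with transcript length, with a slope of -0.156 per log2 unit of length against -0.0517 to 0.0965. The median standard deviation of log2 CPM over 10556 genes was 0.172 within C57BL/6 and 0.247 within mixed kidneys, or 0.159 without kidney 32. Kidneys 25, 28 and 31 had 2350 to 6835 counts of *Xist* and at most 7 of 4 Y-linked genes. Kidneys 29, 32 and 33 had 7664 to 12704 Y-linked counts. Both sexes were thus in each group, but in unequal numbers. High *Xist* marked kidneys 25 and 28 of C57BL/6 and only kidney 31 of the mixed group, so sex was partly confounded with group. The 2 C57BL/6 litter-1 kidneys, 25 and 28, were the most alike pair (Pearson r = 0.954 of log2 CPM across genes) and still differed by more than counting error, with a chi-square of 31.6 per gene.

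The shared transcriptome was that of a metabolically active, still growing kidney. Levels of different genes were set side by side as CPM per kilobase of transcript. The highest of the 15850 genes tested was *Ftl1*, the ferritin light chain, at a mean of 7821 CPM per kb (5853 to 11320 over the 6 kidneys). It was followed by *Gpx3*, the plasma glutathione peroxidase made by proximal tubule, at 3570 (2951 to 4740). The actin-binding thymosin *Tmsb4x* had 3389 CPM per kb and *S100g*, the vitamin D-dependent calcium carrier calbindin-D9k of the distal nephron, 1926. Other genes of the first 20 were subunits of ATP synthase and cytochrome oxidase (*Atp5b*, *Atp5g3*, *Cox4i1*, *Cox8a*, *Cox6a1*), the secreted proteins *Spp1*, *Spp2* and *Igfbp7*, the enzyme *Ldhb*, and *Ptma*, *Fth1*, *Eef1a1*, *Tmsb10*, *H2afz* and *Ppia*. Of the genes named here, *Fth1* differed between the groups by the test used below.

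Each segment of the nephron was represented in all 6 kidneys. *Aqp2*, the water channel of the collecting duct, had a mean of 864 CPM per kb (456 to 1275 over the 6 kidneys). *Kap*, an androgen-responsive proximal tubule gene, had 815 (273 to 1052), and *Slc34a1*, the phosphate transporter of the same segment, had 368 (297 to 470). *Umod*, the uromodulin gene of the thick ascending limb, had 181 (134 to 231). *Podxl*, which encodes a surface sialomucin of podocytes, had 32.2 (23.9 to 43). The progenitor genes were lower on this scale, with *Six2* at 4.60 (1.25 to 7.20) and *Cited1* at 8.37 (4.72 to 10.7), below the collagen gene *Col1a1* of the stroma at 120 (92.3 to 138). Globin genes were listed at 0 counts in all 6 kidneys (*Hba-a1*, *Hba-a2*, *Hbb-bs*, *Hbb-bt*), while *Alas2*, the heme synthesis gene of red cells, had 1968 to 4934 counts per kidney. *Ren1* had 1 count in all, so that neither globin nor renin levels could be read from these files.

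The groups were close for most genes that were well counted. Of the 15850 genes tested, 12796 had at least 1 CPM in all 6 kidneys, and 9327 (58.8%) had a 95% interval of the log2 difference, mixed minus C57BL/6, inside -1 to 1. This share was 96.2% among genes with a mean of at least 100 CPM, 81.6% between 10 and 100 CPM, 10.2% between 1 and 10 CPM, and 0 below 1 CPM. The interval lay inside a 1.5-fold difference for 4110 genes (25.9%). For 6342 genes (40.0%), there was neither a call nor an interval inside -1 to 1, so that a difference was not detectable at this depth and number of kidneys. Among cell types, all 9 endothelial markers and 8 of 9 principal cell markers had intervals inside -1 to 1, against 2 of 7 markers of the ureteric bud tip.

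In edgeR's quasi-likelihood test with Benjamini-Hochberg adjustment, 188 of 15850 genes (1.19%) had an adjusted p below 0.05 and are called different here. Of these, 119 (0.751%) were higher and 69 (0.435%) lower in mixed kidneys. At an unadjusted p below 0.05 there were 2013 genes (12.7%), and at one below 0.01 there were 759 (4.79%). A call requires a difference that is large beside the spread between kidneys, so the sizes given next partly follow from that rule. The median absolute log2 difference of the called genes was 1.33, against 0.26 over all genes tested, and 63 of them were at least 2 log2 units apart. The groups did not overlap in any of the 188, as in 3169 (20%) of all genes tested. The count depended on which kidneys were used. It was 36, 41, 43 and 38 without kidney 25, 28, 29 or 31, of which 34, 40, 42 and 36 were among the 188. Without kidney 32 it was 246, and without kidney 33 it was 308. The test takes kidneys as independent, although each group came from 2 litters. With counts summed per litter the count was 47, and 48 of the 85 called genes named here lost their calls. With Y-linked expression as a covariate for sex the count was 91, and 30 of the 85 lost their calls. Among these were *Slc5a2*, *Fbp1*, *Asns*, *Rhcg*, *Rsad2*, *Ier3*, *Bhlhe40* and *Sox11*.

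**Figure D1:**
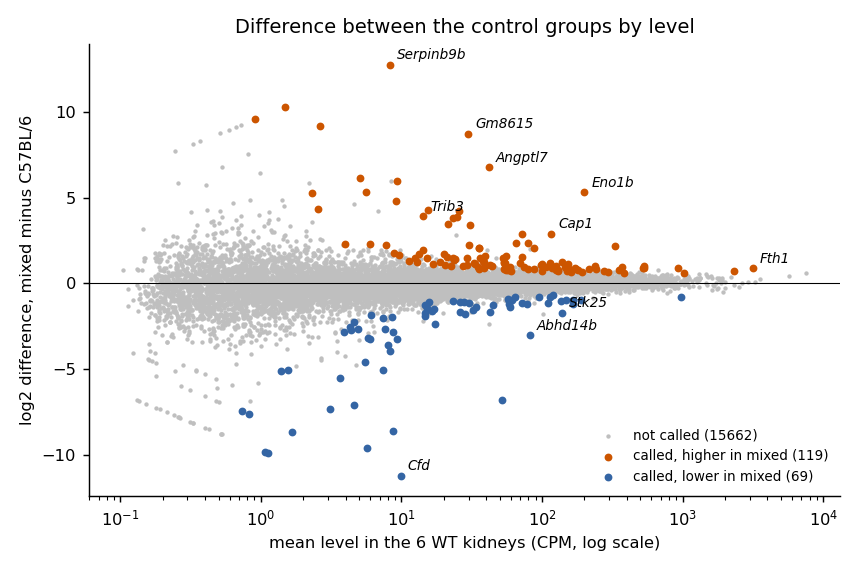
Log2 difference between mixed and C57BL/6 WT kidneys (y axis) against the mean level of the 6 WT kidneys in CPM on a log scale (x axis), 1 point per gene tested. The 119 genes called higher and 69 called lower in mixed kidneys lie at all levels, from below 1 CPM to *Fth1* at 3141 CPM, while most genes gather near 0.

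Of the 10 genes with the smallest p-values, 8 were higher in mixed kidneys. *Gm8615*, annotated as a transcribed processed pseudogene (chr5:149155108-149156209, GRCm38), had 0.225, 0.0944 and 0.0781 CPM in C57BL/6 kidneys 25, 28 and 29 and 56.3, 59.7 and 63 CPM in mixed kidneys 31, 32 and 33. Its log2 difference was 8.74 (SE 0.355, adjusted p = 6.82e-06). *Eno1b*, a copy of the glycolytic enzyme gene *Eno1*, had 9.65, 8.38 and 11.2 CPM in C57BL/6 and 513, 313 and 344 CPM in mixed kidneys, a log2 difference of 5.32 (SE 0.237, adjusted p = 7.5e-06). Both genes thus separated the groups without overlap. *Eno1* itself was listed at only 1.35 to 2.32 CPM, so reads of the 2 copies cannot be told apart here and the level of each is uncertain.

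*Cap1*, a regulator of actin filament turnover (chr4:122859047-122886056), had 28.4, 28.2 and 25.9 CPM in C57BL/6 kidneys and 218, 194 and 203 CPM in mixed kidneys. The log2 difference was 2.90 (SE 0.133, adjusted p = 7.5e-06), or 7.45-fold. *Wdfy1*, an endosomal adaptor protein (chr1:79702262-79776143), had 18.6, 16.1 and 16.2 against 145, 119 and 118 CPM, a log2 difference of 2.91 (SE 0.16, adjusted p = 3.03e-05). These genes were steady within each group, and the lowest mixed kidney was several times the highest C57BL/6 kidney. *A730098P11Rik*, a processed pseudogene on chromosome 16, had 4.31, 5.03 and 6.21 against 57, 51.7 and 59.8 CPM (log2 difference 3.44, SE 0.215, adjusted p = 6.94e-05). *Pam*, the enzyme that amidates peptide hormones, had 26.1, 27.4 and 25.3 against 146, 98.3 and 154 CPM (log2 difference 2.34, SE 0.19, adjusted p = 0.000514). *Tmem87a*, which encodes a Golgi membrane protein, had 2.60, 3.73 and 3.06 against 51.1, 31.2 and 56.4 CPM (log2 difference 3.89, SE 0.288, adjusted p = 0.000284). *Gsta1*, a glutathione transferase, had 0.485, 0.401 and 0.976 against 16.5, 17.2 and 19.3 CPM (log2 difference 4.82, SE 0.412, adjusted p = 0.000635). Its neighbour *Gm3776*, a close copy, moved with it (5.35, SE 0.628, adjusted p = 0.00494), and reads of the pair could be split between them. All these genes stayed called with each kidney left out in turn. Without both litter-1 C57BL/6 kidneys, an alternative chosen after seeing the data that leaves 1 C57BL/6 kidney assumed to vary like the mixed ones, *Pam*, *Tmem87a*, *Gsta1* and *Gm3776* lost their calls (adjusted p 0.0536 to 0.0968), *Gm3776* also in 1 fit of all 12 kidneys (0.0871).

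Of the genes lower in mixed kidneys, *Abhd14b* had the smallest p. This gene, of the alpha/beta hydrolase family (chr9:106447459-106452923), had 145, 142 and 149 CPM in C57BL/6 kidneys and 19.2, 20.9 and 13.4 CPM in mixed kidneys, 8.15-fold lower (log2 difference -3.03, SE 0.188, adjusted p = 6.94e-05). *Stk25*, a kinase of the Golgi apparatus (chr1:93619751-93658659), had 213, 208 and 217 against 67.9, 70.5 and 56 CPM, 3.28-fold lower (log2 difference -1.71, SE 0.136, adjusted p = 0.000476). Within each group these levels varied little, and both calls held with each kidney left out, that of *Stk25* not without both litter-1 C57BL/6 kidneys (adjusted p = 0.0622). The exons of *Abhd14b* overlap those of *Abhd14a*, those of *Stk25* overlap *Farp2*, and those of *Cap1* overlap *Ppt1*. As the strand setting of the counting is not given in the sources used here, reads of such pairs cannot be told apart. Exons of 34 of the 188 called genes (18.1%) overlapped another listed gene, against 21.9% of all genes tested. *Trim12a*, a member of the antiviral TRIM family with close copies, had 8.42, 6.61 and 6.62 against 0.244, 0.0376 and 0.174 CPM. Its log2 difference was -5.54 (SE 0.693, adjusted p = 0.00711), and the call was lost without kidney 25 (adjusted p = 0.0633). *2610507I01Rik*, a noncoding transcript on chromosome 11, had 18.4, 11.5 and 13.5 against 0.733, 0.301 and 0.244 CPM (log2 difference -5.08, SE 0.511, adjusted p = 0.00165), a call lost without both litter-1 C57BL/6 kidneys (0.144).

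**Figure D2:**
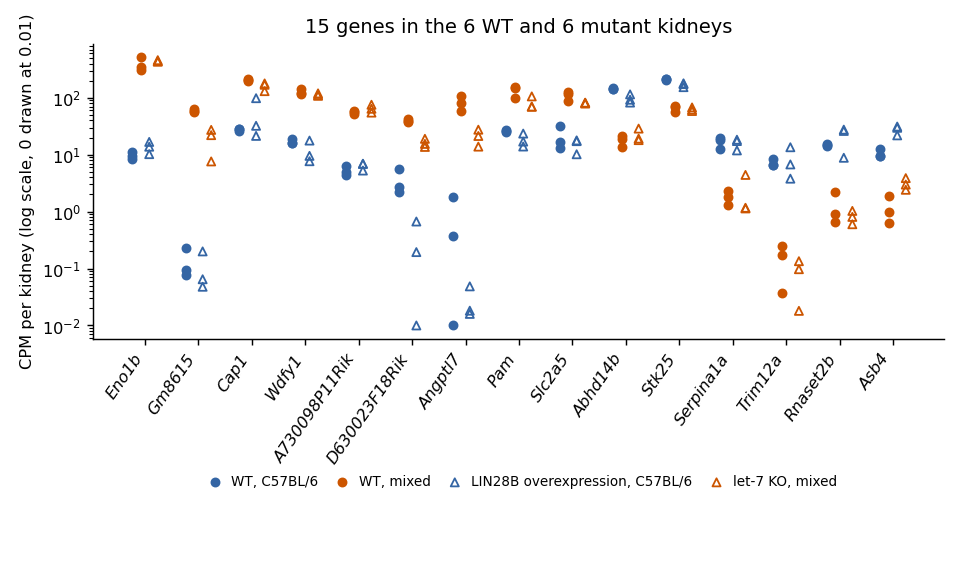
CPM per kidney on a log scale (y axis, values of 0 drawn at 0.01) of 15 genes (x axis) in the 3 WT kidneys (filled circles) and 3 mutant kidneys (open triangles) of each cohort, with no means or error bars. For each gene the 3 mixed WT kidneys lie on 1 side of the 3 C57BL/6 WT kidneys, as for *Abhd14b* at 13.4 to 20.9 against 142 to 149 CPM, and mutant levels were scaled within their own set. *D630023F18Rik*, *Slc2a5*, *Serpina1a*, *Rnaset2b* and *Asb4* were chosen after their values were seen.

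For 9 genes, 1 group had at least 1 CPM in each kidney and the other at most 3 counts in each. *Serpinb9b*, a serine protease inhibitor gene of a family with close copies, had 0 counts in the 3 C57BL/6 kidneys and 1432, 603 and 751 counts in kidneys 31, 32 and 33, at least 811-fold higher when the absent group is put at 3 counts in all. *Serpina3h*, annotated as a pseudogene of the antichymotrypsin cluster, had 0 against 271, 141 and 84 counts, at least 145-fold higher. *9130409I23Rik* had 0 against 60, 130 and 114 counts, at least 89.9-fold higher. In the other direction *Kcnh8*, a potassium channel gene, had 171, 110 and 58 counts in C57BL/6 and 0 in mixed kidneys, at least 128-fold lower. *Cdsn* was the remaining gene seen in mixed kidneys, and *Cfd*, *Ucp1*, *Pak6* and *Cd300ld* were those seen in C57BL/6, each with 1 or 2 counts in the other group. In the mutant kidneys of the other strain, *Serpinb9b*, *Serpina3h* and *Cd300ld* again had at most 3 counts each. The other 6 genes exceeded 3 counts in at least 1 of those kidneys, as *Cfd* did with 268 and *Ucp1* with 127 counts in let7KO kidney 35, and *Cdsn* with 66 counts in LIN28OE kidney 26. *Serpinb9b* had 550, 0 and 3 counts in let7KO kidneys 34, 35 and 36, so it was also nearly absent from some mixed kidneys. With each kidney left out, the calls of *Serpinb9b* and *Cfd* held. In 1 fit of all 12 kidneys both were lost (adjusted p = 0.0573 and 0.102), and *Cfd* was also lost without both litter-1 C57BL/6 kidneys (0.483). *Ucp1* and *Cdsn* lost theirs without kidney 31 (adjusted p = 0.0515 and 0.0684), *Serpina3h* and *Kcnh8* without kidney 25, 28, 29 or 31 (0.0789 to 0.18), and *Pak6* without kidney 25, 29 or 31 (0.0561 to 0.0902). *9130409I23Rik* and *Cd300ld* were called in none of the 6 fits (adjusted p 0.0501 to 0.194).

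Proximal tubule genes gave 4 calls, all higher in mixed kidneys. Of 20 listed markers of this segment, which reabsorbs most filtered solute, these were 4 (20%), against the background of 1.19%. The log2 difference was positive for 19 of 20, against 7684 of 15850 genes tested, with a median of 0.45 against -0.01 over all genes tested, and 14 of 20 did not overlap between groups and were higher, against 9.6% of all genes. *Slc5a12*, a sodium-coupled lactate transporter, had 39.3, 38.4 and 33.4 CPM in C57BL/6 and 120, 104 and 97.5 CPM in mixed kidneys (log2 difference 1.53, SE 0.151, adjusted p = 0.00143). *Slc5a2*, the glucose transporter SGLT2, had 55.4, 72.7 and 56.6 against 124, 105 and 181 CPM (1.15, SE 0.212, adjusted p = 0.0386). *Hnf4a*, the transcription factor of proximal tubule maturation, had 80.2, 86.7 and 78 against 172, 159 and 134 CPM (0.93, SE 0.139, adjusted p = 0.0163). In each of the 3 the lowest mixed kidney exceeded the highest C57BL/6 kidney. *Fbp1*, of gluconeogenesis, had 769, 784 and 911 against 1279, 1265 and 1168 CPM (0.59, SE 0.118, adjusted p = 0.0488). Only the call of *Slc5a12* held with each kidney left out, and it was lost in 1 fit of all 12 kidneys (adjusted p = 0.0564) and without both litter-1 C57BL/6 kidneys (0.177). Without kidney 25, 28, 29 or 31, the adjusted p of the other 3 was 0.091 to 0.306.

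Most members that were not called had positive differences that missed the threshold. *Slc34a1* was 0.54 log2 units higher (SE 0.111, adjusted p = 0.0537), *Slc13a3*, a dicarboxylate transporter, 0.97 (SE 0.196, adjusted p = 0.0501) and *Slc22a6*, the organic anion transporter OAT1, 0.71 (SE 0.158, adjusted p = 0.0789). Without kidney 33, *Slc34a1* and *Slc13a3* passed the threshold (adjusted p = 0.0452 and 0.00597), as *Slc34a1* did without kidney 32 (0.0203). *Lrp2*, the endocytic receptor megalin, differed by 0.47 (95% interval 0.20 to 0.74, adjusted p = 0.123). *Kap* was the exception, at 595, 581 and 651 against 744, 692 and 193 CPM (-0.17, 95% interval -1.03 to 0.69), and without kidney 33 its difference was 0.24. The summed level of the 20 markers was 5726, 5863 and 6377 CPM in C57BL/6 and 9096, 7971 and 7595 CPM in mixed kidneys. The groups did not overlap, and the two-sided exact permutation p was 0.1, the smallest that 3 against 3 kidneys can give. Among the 5 most abundant genes called higher, *Pdzk1* (0.91, SE 0.14, adjusted p = 0.0192), which encodes a brush border scaffold, is also a proximal tubule gene. It lost its call without kidney 25, 28, 29 or 31 (adjusted p 0.0653 to 0.151). In whole kidneys, more cells of a type and more RNA per cell cannot be told apart.

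Markers of the nephrogenic zone were lower by value in mixed kidneys, with 1 call. Of 12 cap mesenchyme markers, *Tmem100* was called (8.33%, 1 of 12), against 1.19% of all genes tested. Log2 differences were negative for 11 of the 12, against 8166 of 15850 genes tested, and the median was -0.39. *Tmem100*, a membrane protein gene, had 34.8, 37.6 and 45.4 CPM in C57BL/6 and 8.01, 10.9 and 18.8 CPM in mixed kidneys (-1.64, SE 0.305, adjusted p = 0.0389). It stayed called without kidney 33 only, among the 6 fits that left 1 kidney out (adjusted p 0.0579 to 0.185 otherwise). *Eya1*, a cofactor that *Six2* cells need, had 6.93, 10.5 and 13.2 against 0.419, 0.883 and 2.82 CPM (-2.89, SE 0.661, adjusted p = 0.0851). *Six2* had 13.1, 10.5 and 15.3 against 2.65, 7.53 and 9.43 CPM (-0.99, SE 0.431, adjusted p = 0.382). The groups did not overlap for either gene, and neither difference passed the test, although *Eya1* did without kidney 33 (adjusted p = 0.0114). *Cited1*, at 8.50, 5.14 and 10.1 against 9.29, 11.7 and 9.97 CPM, was the member with a positive difference (0.38, SE 0.319, adjusted p = 0.698). *Hoxd11* differed by -0.08 (95% interval -0.43 to 0.27). Summed cap mesenchyme levels were 416, 432 and 394 against 298, 307 and 373 CPM, without overlap (exact permutation p = 0.1).

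The early nephron and bud tip lists gave no calls. Of 10 markers of early nephron structures 9 were negative, with a median of -0.33, and of 7 bud tip markers 6 were negative, with a median of -0.80. *Fgf8*, which early nephrons need to survive, had 14, 14.5 and 14.4 CPM in C57BL/6 and 3, 3.79 and 6.87 CPM in mixed kidneys (-1.65, SE 0.35, adjusted p = 0.0645). *Gfra1*, the coreceptor for Gdnf on the bud, had 72.6, 62.1 and 51.7 against 21.2, 27.8 and 36.7 CPM (-1.12, SE 0.231, adjusted p = 0.0547). *Etv5*, which acts downstream of Ret, differed by -0.74 (SE 0.163, adjusted p = 0.0761). These 3 genes did not overlap between groups but missed the threshold, and without kidney 33 *Fgf8* and *Gfra1* passed it (adjusted p = 0.0164 and 0.0221). None of 20 cell cycle genes was called either, in a list where all 20 differences were negative, with a median of -0.33. Its members *Mki67* and *Top2a*, genes of dividing cells, had differences of -0.49 (SE 0.16, adjusted p = 0.225) and -0.58 (SE 0.167, adjusted p = 0.168), and *Top2a* passed without kidney 33 (adjusted p = 0.0282). Of the 20 cell cycle intervals, 17 lay inside -1 to 1. Summed cell cycle levels were 2715, 2759 and 2759 against 2140, 1989 and 2412 CPM.

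**Figure D3:**
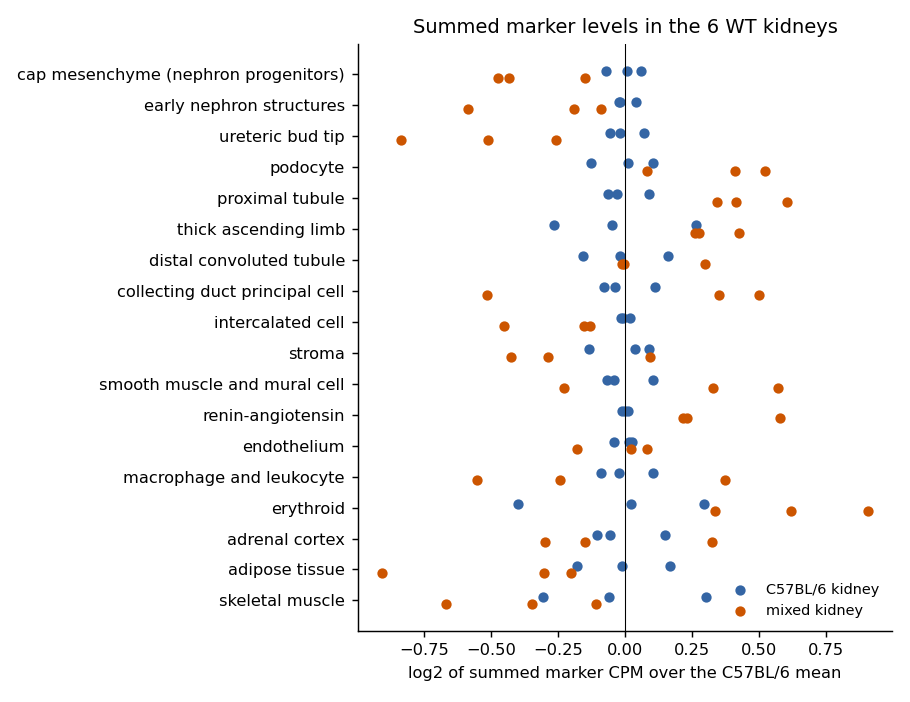
Summed CPM of each cell type marker list in each WT kidney, as log2 of its ratio to the C57BL/6 mean (x axis), for 18 lists (y axis), 1 point per kidney. The groups did not overlap in 8 of 18 lists, 3 higher and 5 lower in mixed kidneys, such as proximal tubule at 7595 to 9096 against 5726 to 6377 CPM. Each of the 8 had an exact permutation p of 0.1, and 20% of all genes tested did not overlap. A sum can rest on 1 gene. *Fabp4* had means of 441 and 359 CPM in adipose sums of 487 and 360 CPM. *Rhcg* had 197 and 101 CPM in intercalated cell sums of 565 and 479 CPM. Of 8 erythroid genes, 6 had no counts.

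Among the other cell types, *Pvalb* and *Rhcg* were called. *Pvalb*, the calcium-binding protein parvalbumin of the distal convoluted tubule, had 2.13, 3.54 and 2.15 CPM in C57BL/6 and 51.8, 64.8 and 28.7 CPM in mixed kidneys (4.22, SE 0.361, adjusted p = 0.000635). It was the only 1 of 5 markers of its segment to pass (20%, against 1.19% of all genes tested). *Slc12a3*, the thiazide-sensitive transporter that defines that segment, had 88.7, 103 and 80.8 against 139, 120 and 111 CPM (0.44, SE 0.148, adjusted p = 0.244). *Rhcg*, an ammonia transporter of intercalated and other collecting duct cells, had 191, 196 and 204 against 129, 79.1 and 94.7 CPM (-0.96, SE 0.177, adjusted p = 0.0385). It was 1 of 8 intercalated markers (12.5%, against the same 1.19%). Leaving out kidney 25, 28, 29 or 33 took the *Rhcg* call away (adjusted p 0.0542 to 0.177), while *Pvalb* stayed called in all 6 such fits and lost its call without both litter-1 C57BL/6 kidneys (0.0622). No marker was called among 12 for podocytes, 6 for the thick ascending limb, 9 for principal cells, 11 for stroma, 6 for smooth muscle, 9 for endothelium and 9 for macrophages and leukocytes. *Wt1*, a podocyte and progenitor regulator, did not overlap, at 53.5, 47 and 47.1 against 22.5, 23.5 and 45 CPM, and missed the threshold (-0.70, SE 0.268, adjusted p = 0.305), which it passed without kidney 33 (adjusted p = 0.0264).

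Adipose genes were lower in mixed kidneys, and among C57BL/6 kidneys they were higher in both litter-1 kidneys than in kidney 29. *Ucp1*, the uncoupling protein of brown fat, had 17.4, 14.3 and 2.34 CPM in kidneys 25, 28 and 29 and 0, 0.0376 and 0 CPM in mixed kidneys (-9.63, SE 1.14, adjusted p = 0.00528). *Adipoq*, the fat cell hormone adiponectin, had 23, 26.3 and 2.65 against 0, 0 and 0.122 CPM (-8.63, SE 1.21, adjusted p = 0.0113). *Cidea*, a lipid droplet protein, had 12.5, 13.6 and 1.48 against 0, 0 and 0.192 CPM (-7.10, SE 1.32, adjusted p = 0.0389). Kidney 29 thus lay between the litter-1 kidneys and the mixed kidneys. These 3 were the called members of 5 tested adipose markers (60%), against 1.19% of all genes. *Plin1*, a lipid droplet coat protein gene, had 8.16, 12.9 and 1.33 against 0, 0.319 and 0.889 CPM and was not called (-4.20, SE 1.23, adjusted p = 0.17). *Fabp4*, which endothelial cells also express, was at 422, 478 and 423 against 395, 424 and 259 CPM and was not called (-0.30, SE 0.179, adjusted p = 0.554). Among the 15 lowest differences, *Cfd*, *Adig*, *Cox8b* and *Car3* are genes of fat as well. *Cfd*, the adipsin gene, had 23.7, 31.6 and 3.83 against 0, 0.0188 and 0 CPM (-11.2, SE 1.14, adjusted p = 0.00168). *Car3* had 130, 157 and 22.1 against 1.24, 0.0188 and 1.48 CPM (-6.80, SE 0.995, adjusted p = 0.0147). Among the mutants, let7KO kidney 35 had 2.29 CPM of *Ucp1* and LIN28OE kidney 27 none, so levels differed between kidneys of 1 strain. What part tissue adhering to a kidney has in these values was not tested. Without both litter-1 C57BL/6 kidneys, which leaves kidney 29 alone, the differences shrank to -7.33 for *Ucp1*, -5.94 for *Adipoq* and -4.48 for *Cidea*. These calls were lost there, as were those of *Cfd*, *Adig*, *Cox8b* and *Car3*. In 1 fit of all 12 kidneys, *Ucp1*, *Adipoq*, *Cidea*, *Cfd*, *Adig* and *Cox8b* lost their calls (adjusted p 0.0886 to 0.271), and *Car3* kept its call. Calls of *Ucp1* held without each kidney except 31 (adjusted p = 0.0515), and those of *Adipoq* and *Cidea* were lost without kidney 25, 28 or 31 (adjusted p 0.071 to 0.204), the latter also without kidney 29 (adjusted p = 0.0561). *Car3* and *Cox8b* lost theirs without kidney 25, 28 or 31 (0.0722 to 0.152), and *Adig* without kidney 25, 28, 29 or 31 (0.091 to 0.204).

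Genes of the amino acid stress response gave 4 calls. Of 15 listed targets of the transcription factor Atf4, 4 (26.7%) were called, against 1.19% of all genes tested, and all 4 were higher. Of the 15 differences 13 were positive, against 7684 of 15850, and the median was 0.42. *Trib3*, a pseudokinase induced by this response, had 1.85, 1.01 and 2.34 CPM in C57BL/6 and 28.6, 29 and 22.1 CPM in mixed kidneys, 15.2-fold higher (3.93, SE 0.347, adjusted p = 0.000716). It stayed called with each kidney left out, but not in 1 fit of all 12 kidneys (adjusted p = 0.438) or without both litter-1 C57BL/6 kidneys (0.0536). *Ddit3*, the stress factor CHOP, had 10.4, 7.53 and 9.96 against 29.2, 38.4 and 25.3 CPM (1.73, SE 0.241, adjusted p = 0.0106). *Asns*, asparagine synthetase, had 23.7, 17 and 25 against 36.8, 64.5 and 62.1 CPM (1.31, SE 0.256, adjusted p = 0.0446). The groups were apart in each of these genes. *Phgdh*, of serine synthesis, differed less (0.60, SE 0.117, adjusted p = 0.0446), and *Atf4* itself had 87.2, 88.2 and 88.3 against 93.6, 114 and 101 CPM (0.23, 95% interval -0.07 to 0.52, adjusted p = 0.527). *Ddit3*, *Asns* and *Phgdh* lost their calls without kidney 25, 28, 29 or 31 (adjusted p 0.0547 to 0.287), and *Asns* also without kidney 32 or 33 (0.0609 and 0.0665). In the let7KO kidneys *Trib3* had 12.6, 0.0181 and 0 CPM, against 22.1 to 29 CPM in their WT littermates.

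Injury and early response genes gave 3 calls. *Havcr1*, the kidney injury molecule KIM-1 of damaged proximal tubule, had 1.23, 0.165 and 3.16 CPM in C57BL/6 and 30.3, 25.3 and 33.2 CPM in mixed kidneys (4.27, SE 0.728, adjusted p = 0.0302). It was the call among 8 injury genes (12.5%), against 1.19% of all genes tested. *Lcn2*, another injury gene, had 8.87, 9.11 and 19.3 against 20.6, 32.7 and 48.7 CPM and was not called (1.45, SE 0.381, adjusted p = 0.127). Both separated the groups by value. Of the 8 injury genes, 6 differences were positive and 2 negative, with a median of 0.12, and the lowest was *Krt20* (-1.06, adjusted p = 0.759). Their summed level overlapped, at 2234, 2246 and 2104 against 3052, 2801 and 2072 CPM (exact permutation p = 0.4). The *Havcr1* call was lost in 1 fit of all 12 kidneys (adjusted p = 0.208). Its level was 15.1, 0.0181 and 3.42 CPM in let7KO kidneys 34, 35 and 36. Of 13 immediate early genes 2 (15.4%) were called, both higher, against 0.751% of all genes called higher. *Cyr61*, a matrix protein induced by growth factors, had 61.6, 79.4 and 46.9 against 134, 130 and 138 CPM (1.10, SE 0.187, adjusted p = 0.03), and *Ier3* differed by 1.11 (SE 0.204, adjusted p = 0.0378). *Atf3* was not called (1.95, SE 0.406, adjusted p = 0.0587), but it was without kidney 33 (adjusted p = 0.0463). Of 16 clock genes *Bhlhe40* was called (6.25%, against 1.19% of all genes tested), with a difference of 0.83 (SE 0.148, adjusted p = 0.0362). *Per2* differed by 1.17 (SE 0.261, adjusted p = 0.0797) and was not called. Without kidney 25 or 31, none of these 4 calls held (adjusted p 0.136 to 0.195). *Ier3* and *Bhlhe40* were also lost without kidney 28 or 29 (0.0827 to 0.204) and *Cyr61* without kidney 29 (0.0885). The time of day of dissection is not given in the sources used here.

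**Figure D4:**
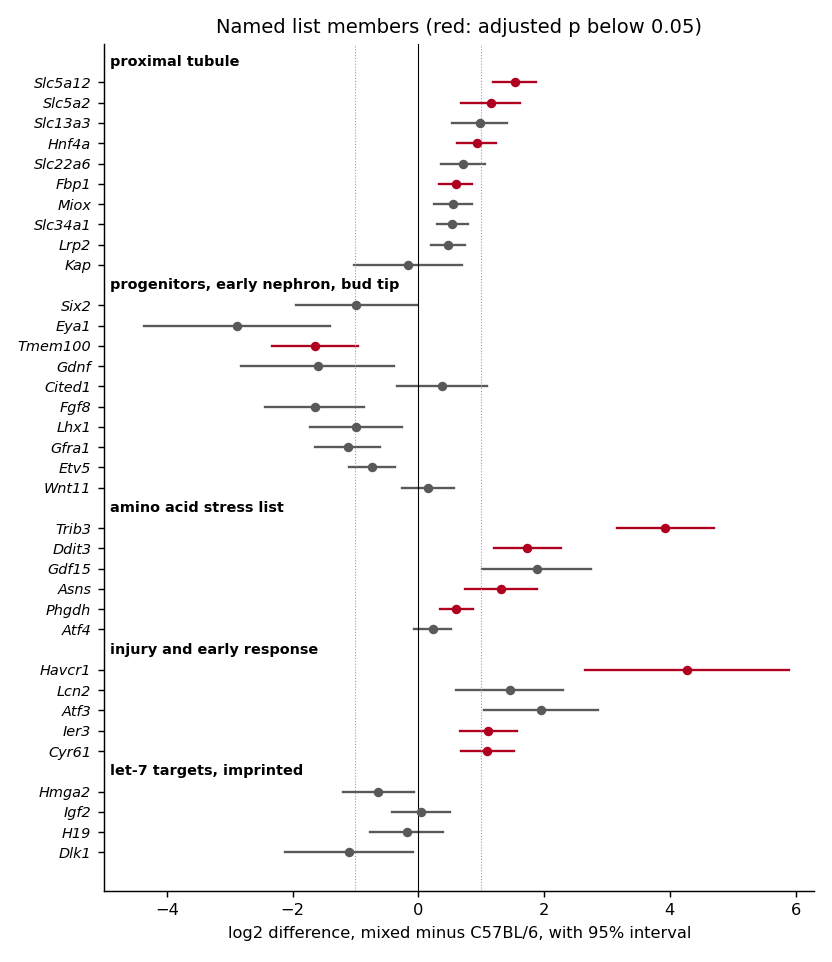
Log2 difference, mixed minus C57BL/6, with its 95% interval (x axis) for named members of 5 groups of lists (y axis), 3 kidneys per group. Members with an adjusted p below 0.05 are red. The intervals of the proximal tubule genes shown lie above 0 except for *Kap*. Those of the progenitor and bud tip genes shown lie mostly below 0 and are wider. The genes shown are a selection. Among members of the same lists left out, the intervals of *Hoxa11* and *Jag1* span 0, and those of *Pax2* and *Bmp2* lie below 0.

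Lists of immune and strain-variable genes had few calls. Of 22 interferon response genes, *Rsad2*, an antiviral enzyme, was called (4.55%, against 1.19% of all genes tested). It had 81.1, 75.9 and 86.5 against 46.9, 52.6 and 43.9 CPM (-0.76, SE 0.145, adjusted p = 0.0404). Differences were negative for 18 of the 22, with a median of -0.52. The *Rsad2* call held without kidney 32 only, among fits that left 1 kidney out (adjusted p 0.0597 to 0.226 otherwise). None of 17 genes of the major histocompatibility complex and antigen presentation was called, 16 of them were positive and their median was 0.68. Their summed level was 735, 811 and 806 CPM in C57BL/6 and 943, 2016 and 892 CPM in mixed kidneys, so kidney 32 was far above the others. *Cd74*, the invariant chain, had 25.1, 40.4 and 33.1 against 74.7, 266 and 51.4 CPM (1.99, SE 0.525, adjusted p = 0.129). Without kidney 33 it passed the test (adjusted p = 0.032). *H2-T10*, a class I gene, had 14.1, 10.8 and 0.683 against 0.175, 38 and 0.715 CPM, and so varied within both groups rather than between them. Of 11 genes known to vary among laboratory strains 3 could be tested and none was called. *Ifi202b* had 0 in the C57BL/6 kidneys and 2.01, 0.657 and 0.872 CPM in mixed kidneys (adjusted p = 0.0715). *Nnt*, a mitochondrial transhydrogenase that is mutated in some C57BL/6 substrains, had 99.2 ± 15 CPM (SD, n = 3) in C57BL/6 and 169 ± 64.4 CPM (SD, n = 3) in mixed kidneys (0.77, SE 0.253, adjusted p = 0.235), and its groups overlapped.

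Genes of the pathway the series studied gave no calls between the controls. The Lin28, let-7 target and imprinted growth list held 14 genes, of which 12 passed the filter and were tested. None was called, and 10 of 12 intervals lay inside -1 to 1. Differences were negative for 8 of the 12 and positive for 4, with a median of -0.26. The 95% intervals of *Dlk1* (-2.13 to -0.09) and *Hmga2* (-1.20 to -0.08) lay below 0. *Hmga2*, a let-7 target that falls as organs mature, had 12.7, 14.9 and 16.8 CPM in C57BL/6 and 9.91, 7.89 and 10.7 CPM in mixed kidneys (-0.64, SE 0.251, adjusted p = 0.321). *Igf2*, the fetal growth factor, had 107, 105 and 113 against 91.4, 153 and 89 CPM (0.04, 95% interval -0.42 to 0.50). *H19*, the noncoding transcript of the same locus, had 119, 137 and 202 against 99.4, 188 and 116 CPM (-0.19, 95% interval -0.77 to 0.40). For *Igf2* and *H19* the groups overlapped, and for *Hmga2* they did not.

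Over all lists, 19 of 330 tested genes were called (5.76%), 13 higher and 6 lower, against 1.19% of all genes tested. No further list gave a call, including cholesterol synthesis (18 genes), fatty acid oxidation (16), hypoxia and glycolysis (16) and glucocorticoid targets (8). Gene families gave few calls. Of 81 cytosolic ribosomal protein genes none was called, and of 73 subunits of oxidative phosphorylation only *Cox8b* was, while 69 of the 73 differences were positive, with a median of 0.25. Of 22 glutathione transferases *Gsta1* and *Gstp1* were called, the latter at 85.9, 90.6 and 110 against 159, 271 and 204 CPM (1.15, SE 0.198, adjusted p = 0.032), a call lost without kidney 25, 28 or 29 (0.091 to 0.177). Of 37 cytochrome P450 genes *Cyp2e1* was called (-2.66, SE 0.519, adjusted p = 0.0446), but not without kidney 25, 28, 29, 31 or 33 (0.0644 to 0.222). Of 297 solute carriers 6 (2.02%) were called and 5 of them were higher, and of 344 Zfp genes 2 (0.581%) were called, against 1.19% of all genes tested. Processed pseudogenes were called in 3 of 37 (8.11%) and transcribed processed pseudogenes in 3 of 26 (11.5%), against 175 of 14880 protein-coding genes (1.18%).

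Abundant genes were among the calls in both directions. *Fth1*, the ferritin heavy chain, had 2070, 2067 and 2443 CPM in C57BL/6 and 4448, 4390 and 3431 CPM in mixed kidneys (0.90, SE 0.135, adjusted p = 0.0163). *Sqstm1*, an autophagy receptor, had 338, 334 and 384 against 741, 604 and 808 CPM (1.03, SE 0.14, adjusted p = 0.00978). *Serpinh1*, the collagen chaperone HSP47, had 1141, 1270 and 1259 against 734, 722 and 690 CPM (-0.77, SE 0.11, adjusted p = 0.0121). The groups did not overlap in any of these 3 genes. *Mgp*, a matrix protein that keeps vessels from calcifying, had 199, 217 and 278 against 103, 116 and 81.6 CPM (-1.20, SE 0.177, adjusted p = 0.0151). *Sdc4*, a cell surface proteoglycan, differed by -0.94 (SE 0.154, adjusted p = 0.0244). *Ftl1* did not overlap between the groups and was not called (0.59, SE 0.164, adjusted p = 0.151), but it was without kidney 33 (adjusted p = 0.00885). Of these genes *Fth1*, *Serpinh1*, *Mgp* and *Sdc4* lost their calls without kidney 25, 28, 29 or 31 (adjusted p 0.05 to 0.151), and *Sqstm1* without kidney 25, 28 or 31 (0.0698 to 0.102).

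Called genes lay on most chromosomes, and some lay side by side. On chromosome 1, 25 of 928 genes tested were called (2.69%), and on chromosome 5, 2 of 977 (0.205%), against 1.19% of all genes tested. Of 187 called genes with a position, 75 fell in 32 runs in which neighbours were at most 1 Mb apart. How many runs the same number of genes drawn from all genes tested would form was not computed, so this count does not show clustering. The run with the most genes, at chr11:114982274-116854263, held *Cd300ld*, *Smim5*, *Smim6* and *Mettl23*, which were all lower in mixed kidneys, as 4 of 66 genes tested there. *Smim6*, a small membrane protein gene, had 12, 13.3 and 14.2 against 3.02, 1.58 and 1.66 CPM (-2.66, SE 0.365, adjusted p = 0.0102), a call lost without kidney 25, 28 or 29 (0.0636 to 0.0729). Of the 32 runs, 18 held 1 direction and 14 held both. At chr17:6430112-7011299, *Dynlt1b* was higher (1.14, SE 0.211, adjusted p = 0.0389), while *Tagap1* (-1.02, SE 0.18, adjusted p = 0.0348) and *Rnaset2b* (-3.56, SE 0.47, adjusted p = 0.00895) were lower. *Dynlt1b* and *Rnaset2b* have near-identical copies beside them, and the copies *Dynlt1c* and *Rnaset2a* were listed at 0. These 3 genes were chosen after their values were seen, and each of their calls was lost without kidney 25, 28, 29 or 31 (0.0515 to 0.201), as was that of *Dynlt1b* without kidney 32 (0.0517) and of *Tagap1* without kidney 33 (0.0501). At chr6:136612070-136875823, *Plbd1* was higher and *Art4* and *Mgp* were lower. *Angptl7*, a secreted angiopoietin-like protein gene on chromosome 4, had 1.78, 0 and 0.371 against 108, 59.2 and 81.3 CPM (6.78, SE 0.872, adjusted p = 0.00823). The *Angptl7* call was lost without kidney 29 or 31 (adjusted p = 0.0583 and 0.0561).

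The mutant kidneys of the same cohorts, which share no sample with the WT kidneys, mostly showed these differences too. Of the 188 genes, 185 could be tested in let7KO (mixed) minus LIN28OE (C57BL/6) kidneys, and 173 of them (93.5%) had the same direction, against 67.2% of all genes tested in both. The direction was the same without overlap in 131 (70.8%), against 18.7% of all genes. An adjusted p below 0.05 in the same direction was found for 72, in a comparison in which 319 of 15492 genes (2.06%) had one in either direction and 3548 (22.9%) did not overlap, and 0 of the 188 had one in the opposite direction. Among genes higher in mixed WT kidneys 115 of 117 kept their direction, and among those lower 58 of 68 did. The mutants differ in their mutation as well as in strain, and they are littermates of the WT kidneys, so this comparison shares litters and handling with the first. *Eno1b* had 16.8, 13.8 and 10.2 CPM in LIN28OE kidneys 26, 27 and 30 and 458, 438 and 431 CPM in let7KO kidneys 34, 35 and 36. *Abhd14b* had 115, 92.4 and 82.4 against 18, 19.2 and 28.7 CPM. *Cap1* had 21.4, 32.2 and 98.4 against 179, 169 and 131 CPM. These levels kept the 2 strains apart in the mutants too, with the smallest gap at LIN28OE kidney 30 for *Cap1*. *Gm8615* had 27.3, 22 and 7.62 CPM in let7KO kidneys, below all 3 mixed WT kidneys and above all 6 C57BL/6 kidneys.

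Directions were opposite in the mutants for 12 genes. Of these, *Ucp1*, *Cidea* and *Adig* are genes of fat, *Upk1b* and *Upk2* encode uroplakins of the urothelium that lines the renal pelvis, and the rest were *Tmem100*, *Sdc4*, *Cyp2e1*, *Maoa*, *Atp6v0a1*, *Cep128* and *4930481A15Rik*. *Tmem100* had 19, 24.7 and 26.7 CPM in LIN28OE and 32.4, 22.7 and 24.5 CPM in let7KO kidneys. *Eya1*, by contrast, had 28.6, 37.1 and 53.7 against 4.54, 2.47 and 5.36 CPM. In WT kidneys the means of *Eya1* were lower, at 10.2 CPM in C57BL/6 and 1.38 CPM in mixed kidneys. The paper reports raised *Eya1* transcript in both mutant models relative to littermate controls. What part the mutations have in the *Eya1* gap between the mutants was not tested. *Slc5a12* kept its direction at a lower level, with 22.4, 9.36 and 7.07 against 42.8, 50 and 66.6 CPM. Differences between the WT and the mutant comparison were tested as an interaction in 1 fit of 12 kidneys. None of the 188 had an adjusted p below 0.05 there, and 1 of 16598 genes did, which does not show that the comparisons were alike.

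**Figure D5:**
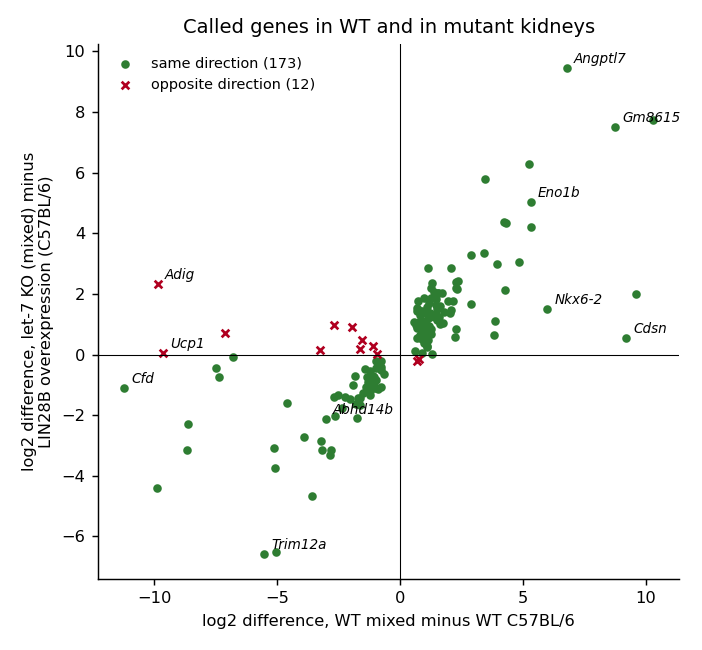
Log2 difference of the 185 called genes tested in both sets, in WT kidneys (x axis, mixed minus C57BL/6) and in mutant kidneys (y axis, let-7 KO mixed minus LIN28B overexpression C57BL/6), 1 point per gene. Green points (173) have the same direction in both sets and red crosses (12) the opposite, such as *Adig* at -9.84 in WT and 2.31 in mutant kidneys.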

How the data were processed

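Whole P3 kidneys were extracted with Trizol and DNase, and the SMARTer Ultra Low RNA kit V3 gave libraries that an Illumina HiSeq read. The deposited values are raw read counts per gene symbol, which the authors made, per the submitters' processing notes, with cutadapt, TopHat2 2.0.9, Bowtie2, SAMtools 0.1.19 and HTSeq on mm10. The annotation release, the strand setting and the treatment of shared reads are not given in the sources used here. mm10 derives from C57BL/6, and how sequence differences affect alignment was not tested.

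Of 24062 symbols, 22708 matched GENCODE M21 (GRCm38) and 904 matched by an older symbol, which gave positions and lengths. Genes passing filterByExpr (minimum count 10, total 15) were scaled by TMM and tested with edgeR 4.0.16 (R 4.3.3), quasi-likelihood, on the 6 WT kidneys, and a Benjamini-Hochberg adjusted p below 0.05 was a call. Adjusted p-values in the text are from this test on the 6 WT kidneys unless another fit or set of kidneys is named beside them. They set each group difference against the estimated spread between kidneys, which were taken as independent although each group came from 2 litters. SE and 95% intervals follow from the F statistic of that test. CPM of mutants used their own TMM factors. Marker sums were compared by a two-sided exact permutation test (scipy 1.17.1). In simulated data, 200 of 15476 genes were changed, all drawn from genes with a mean of at least 10 CPM, in independent kidneys without litters. Of these, 71% of those changed by 1 log2 unit and 95% of those by 2 units were called. Changes in genes below that level were not simulated.

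Alternatives were DESeq2 1.42.0, edgeR's exact test, other scalings, filters, thresholds and covariates, 1 fit of all 12 kidneys, counts summed per litter and leaving out each kidney. The named genes were the 20 highest per kb, the 15 highest and 15 lowest differences among calls, the 5 most abundant calls each way, the 10 smallest p-values, list members, the 5 largest runs of neighbouring calls and the 10 genes of widest spread. Genes named outside this rule are said to be chosen after their values were seen. Members and lists (33 lists and 13 families) were chosen with earlier results of these data known. A few genes that this rule names are not reported here.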

Additional observations from a re-analysis of the deposited data

How the results depend on the processing

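The number of genes called, 188 in the 6 WT kidneys, was 687 by DESeq2, 563 by edgeR's exact test, 345 with transcript length as a covariate, 104 in 1 fit of all 12 kidneys, 91 with Y-linked expression as a covariate and 47 with counts summed per litter. It was 759 at an unadjusted p below 0.01 and 47 at an adjusted p below 0.01, and 36 to 308 with 1 kidney left out. The list members called, 19 in the main analysis, were 55, 49, 32, 8, 10 and 5 under the first 6 of these settings in the order given, and 4 to 33 with 1 kidney left out. The share of genes with an interval inside -1 to 1 (58.8%) was 59.9% by DESeq2, 49.7% with no filter, 74.2% with at least 1 CPM in every kidney, 52.5% in the fit of 12 kidneys, 54.4% per litter, 54.8% with the Y-linked and 60.6% with the length covariate, and 50.9% to 58.4% with 1 kidney left out. The exact test gives no interval. The share with the same direction in mutants (93.5%) was 98.1% in the fit of 12 kidneys, 97.8% per litter, 97.8% with the Y-linked covariate, 91.9% by DESeq2, 92.2% by the exact test and 94.2% to 97.6% with 1 kidney left out. Without both litter-1 C57BL/6 kidneys, chosen after seeing the data, these values were 12 genes, 0 list members, 31.8% and 100%. Of 85 named calls, none changed sign, 24 held with each kidney left out and 7 held in every setting run. Signs turned only in *Igf2*, *H19* and *Kap*, none of them called. The *Igf2* difference was -0.0565 per litter, -0.0569 with the Y-linked covariate, -0.15 with the length covariate and -0.0216 without both litter-1 kidneys, and -0.26 to 0.17 with 1 kidney left out, where *H19* ran from -0.50 to 0.0804 and *Kap* from -0.46 to 0.24. The cause of these changes was not tested. No paired analysis was possible because the 2 groups share no replicate numbers. With 3 kidneys a group, genes below 1 CPM could not be bounded within a log2 unit at this depth.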

Other observations

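The called genes of this and the next paragraph were chosen after their values were seen. *Hmox1*, the heme-degrading enzyme heme oxygenase 1, had 35.8, 39.3 and 26.7 CPM in C57BL/6 kidneys 25, 28 and 29 and 137, 116 and 167 CPM in mixed kidneys 31, 32 and 33 (log2 difference 2.04, SE 0.195, adjusted p = 0.0013). *Plaur*, the urokinase receptor, had 12.2, 11.4 and 8.43 against 44.6, 48.2 and 57.2 CPM (2.23, SE 0.216, adjusted p = 0.00138). *Tnfrsf12a*, the receptor of the cytokine TWEAK, had 26.7, 29.3 and 25.1 against 74.4, 88.5 and 85.6 CPM. The groups were apart in all 3, and the 3 calls held with each kidney left out, but not without both litter-1 C57BL/6 kidneys (adjusted p 0.0622 to 0.177). *Slc2a5*, the fructose transporter GLUT5, had 32.4, 13.2 and 16.9 against 116, 124 and 86.1 CPM (2.38, SE 0.315, adjusted p = 0.00895), a call lost without kidney 29 or 31 (0.0679 and 0.0684). *Serpina1a*, an alpha-1-antitrypsin gene with close copies, was lower, at 19.8, 18.4 and 12.5 against 2.3, 1.31 and 1.78 CPM (-3.23, SE 0.348, adjusted p = 0.0026), a call that held with each kidney left out but not without both litter-1 C57BL/6 kidneys (0.499).

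Both *Mycn* and *Sox11*, transcription factor genes of growing embryonic tissue, were lower in mixed kidneys. *Mycn* had 87.7, 106 and 103 against 30.7, 49.7 and 54.8 CPM (-1.14, SE 0.215, adjusted p = 0.0404). *Sox11* had 102, 80.6 and 72.3 against 26.1, 36.9 and 37.1 CPM (-1.35, SE 0.199, adjusted p = 0.0151). Neither gene overlapped between the groups, and both calls were lost without kidney 25, 28, 29 or 31 (adjusted p 0.0515 to 0.206).

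Single kidneys also stood out. There were 17 genes with at least 1 CPM in kidney 32 and at most 3 counts in each other WT kidney, against 4 in each of kidneys 25, 28, 29 and 31 and 6 in kidney 33. *Zfp27*, a zinc finger gene, had 17, 10.1 and 12.5 CPM in C57BL/6 and 11.6, 0.319 and 13.3 CPM in mixed kidneys, so that kidney 32 was low by itself.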
